A study of Mus musculus with 2 samples.

Results

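The Ikaros family is a set of 5 zinc finger transcription factors: Ikzf1 (Ikaros), Ikzf2 (Helios), Ikzf3 (Aiolos), Ikzf4 (Eos) and Ikzf5 (Pegasus). Its members on the array were all gene probes, found in both scanner files, whose RefSeq accession belongs to one of these genes: 10 probes for 5 genes, of 25083 probes that could be named for 17298 genes. The family was chosen by its log2 differences between these same arrays, those of Ikzf1 and Ikzf3 being known beforehand, so every difference below is a description and carries no test. Ikzf1, Ikzf3 and Ikzf5 had 1 probe each, Ikzf4 had 3 and Ikzf2 had 4, and each probe was a single spot.

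RNA came from mouse hybridoma cells labelled 1H5F9, a line of the kind obtained when an antibody-forming B cell is fused to a myeloma cell, grown in RPMI medium with fetal bovine serum. One culture group received 0 µg/ml and the other 5 µg/ml of the bursal peptide BSP-II, both for 4 h. Total RNA was labelled with Cy3 and hybridised in a single colour, on 1 array per dose, so no spread between cultures can be given and "higher" and "lower" compare these 2 arrays only. Repeated experiments are mentioned in the series' design text, but the labels give replicate number 1 to each array analysed. The parental cells of the line, and whether it is a single clone, are not stated in the labels.

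The DNA sites bound by Ikaros share the letters GGGAA. Ikaros family proteins bind DNA through zinc fingers near their N terminus, and pair with each other through a second group of fingers at the C terminus. They recruit chromatin complexes, above all the NuRD deacetylase complex, and can repress or activate genes. Ikaros is needed for lymphocyte development and Aiolos acts in later B cells and plasma cells, whereas Helios and Eos are best known from T cells, including regulatory T cells, and Pegasus is expressed widely. In myeloma cells, drugs of the lenalidomide type turn the ubiquitin ligase adaptor cereblon against Ikaros and Aiolos.

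On the array from BSP-II cells Ikzf1 was higher, and the measured probes of Ikzf3, Ikzf4 and Ikzf5 were lower. Helios was too close to background for its difference to be measured. Of the 10 probes, 6 passed on both arrays as "well above background", the flag that Agilent's scanner software sets for a spot clearly brighter than its surroundings, and the 4 that were not on either array were the 4 Helios probes. Of the 6, 1 was higher and 5 were lower, where 57.3% of all probes well above background on both arrays were lower. None of the 6 differed by 1.5-fold or more; of all 12849 measured genes, 1.21% were at least 1.5-fold higher and 4.83% at least 1.5-fold lower.

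Ikzf1 encodes Ikaros itself, the founding member of the family. Its processed signal, which is the spot's brightness after background subtraction, was 2516 ± 252 in untreated cells and 3697 ± 369.7 in BSP-II cells, where ± is the scanner software's own error for 1 spot. The 2 spots stood far above their local background, with median pixel values of 2445 over 43 and 3563 over 35.5. With no background subtraction, and each array scaled by the 75th percentile of its median pixel values, the log2 difference was 0.38. For the main values each array was scaled by the 75th percentile of its processed signals, 309 and 356. On that scale Ikzf1 was 1.27-fold higher with BSP-II, a log2 difference of 0.35, and the spot errors carried to the difference came to 0.20. That error leaves out any difference between cultures, RNA samples and hybridisations.

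Bright spots differed little between these arrays, which is the setting for the Ikzf1 value. Genes were divided into 5 level groups of equal size by their mean signal, and in the brightest group, which held Ikzf1, the median log2 difference was −0.03 with quartiles of −0.11 and 0.05. Only 30 of its 2570 genes (1.17%) were at least as high as Ikzf1. Among all measured genes 4.68% were. This rank is a description, as the gene was chosen with its value known. The brightest group ran from 3.03 to 9.72 in mean scaled log2 signal. Ikzf1, at 3.02 untreated and 3.38 with BSP-II, lay near its lower edge, so most genes of the group were brighter. In the next group down the median log2 difference was 0.02 with quartiles of −0.08 and 0.11.

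**Figure D1:**
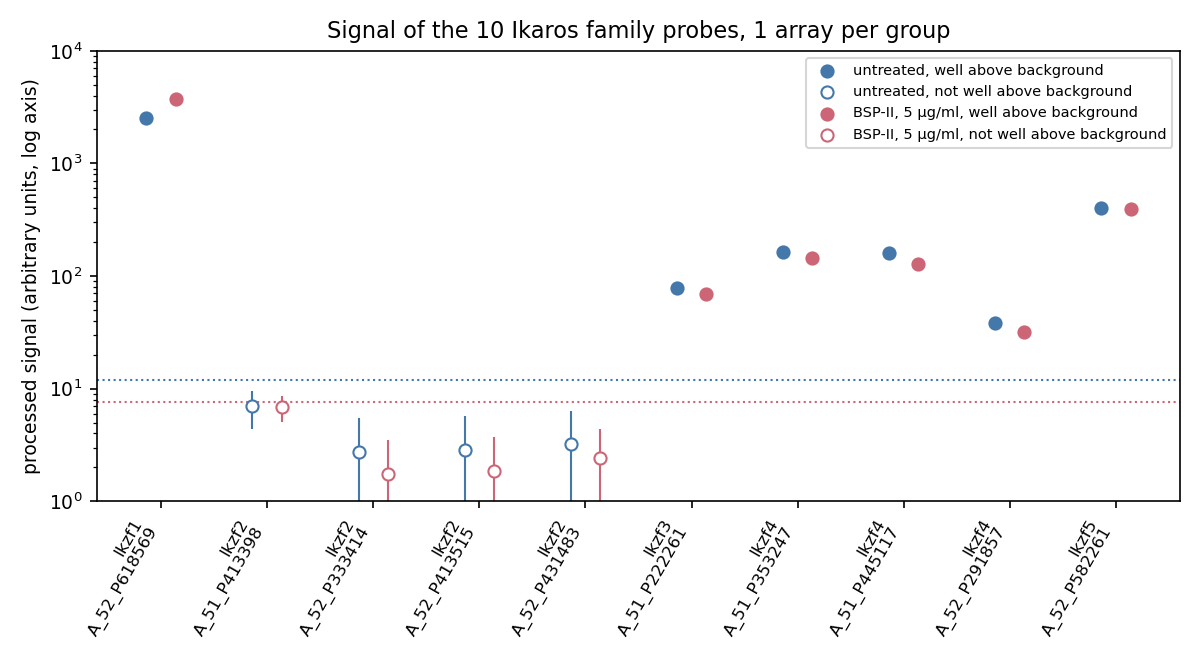
Processed signal (log axis, arbitrary units) of each of the 10 Ikaros family probes on the untreated and the BSP-II array, with bars for the scanner software's error of a spot and dotted lines at the lowest signal well above background on each array (bars that pass below 1 are clipped there). Ikzf1 is higher on the BSP-II array, the 5 probes of Ikzf3, Ikzf4 and Ikzf5 are slightly lower, and the 4 Ikzf2 probes lie under both lines.

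Promoter windows of RefSeq's GRCm38.p6 table matched 2 of the 5 genes: Ikzf1, at 2 start sites, and Ikzf5, at 1. The 250 bases upstream of each start were searched for GGGAA on both strands, as the core that Ikaros binds. The inner Ikzf1 window is shown because Ikzf1 is the member that was higher and this is its window with the core letters; the capitals mark GGGAA read on the opposite strand.
Ikzf1, inner start, chr11:11689927-11690176, + strand: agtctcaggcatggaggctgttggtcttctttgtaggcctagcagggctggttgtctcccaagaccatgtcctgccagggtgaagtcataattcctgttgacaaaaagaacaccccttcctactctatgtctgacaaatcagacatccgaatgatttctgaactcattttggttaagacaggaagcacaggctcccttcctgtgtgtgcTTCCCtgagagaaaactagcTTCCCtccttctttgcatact
This window held 2 matches and the outer Ikzf1 window, chr11:11685675-11685924 on the + strand, held 0, while the Ikzf5 window held 1. The longer form TGGGAA, which contains GGGAA, was in none of the 3. Of 32851 windows of this length in the table, 56.2% held GGGAA at least once, 21.2% held it at least 2 times and 21.6% held TGGGAA. The letters are thus common, and the arrays carry no measurement of binding or of start site use. The inner window lies within the annotated span of the gene, downstream of the outer start.

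Ikzf3 encodes Aiolos, the closest relative of Ikaros in the B lineage. Its signal was 77.6 ± 8.20 without the peptide and 68.9 ± 7.09 with it. After scaling the log2 difference was −0.38 with a carried error of 0.21, or 1.30-fold lower. The spot was only 2.76 times as bright as its local background on the untreated array and 3.0 times on the other. In its level group the median log2 difference was −0.06 with quartiles of −0.29 and 0.15, and 17.9% of the genes were at least as low. The Aiolos value thus lay outside the quartiles of genes of like signal, but well inside their range.

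Ikzf4 encodes Eos, a partner of Foxp3 in regulatory T cells, and was read by 3 probes at different places on the array. Its probe A_51_P353247 gave 162 ± 16.4 on the untreated and 145 ± 14.5 on the BSP-II array, a log2 difference of −0.37. Probe A_51_P445117 gave 158 ± 16.03 and 129 ± 13.0, a difference of −0.50. Probe A_52_P291857 gave 38.1 ± 4.89 and 31.9 ± 3.76, a difference of −0.46. All 3 Ikzf4 probes were therefore lower, by 1.29-fold, 1.42-fold and 1.38-fold, and differed from one another by less than the carried error of a single probe (0.21, 0.21 and 0.25). They share the same RNA, so they check the spots and not the cultures. Against genes of like level the 2 brighter probes had 18.8% and 9.22% of genes at least as low, and the dim probe, in a level group whose own median was −0.20, had 22.4%.

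Ikzf5 encodes Pegasus, the most distant member of the family. Its signal was 402 ± 40.3 and 394 ± 39.5 on the untreated and BSP-II arrays, nearly equal before scaling. After scaling the log2 difference was −0.23 with a carried error of 0.20, or 1.18-fold lower, and 11.5% of genes in its level group were at least as low. Of the measured members it had the smallest difference.

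Ikzf2 encodes Helios, and none of its 4 probes was well above background on either array. Probe A_51_P413398 read 7.01 ± 2.60 on the untreated and 6.83 ± 1.79 on the BSP-II array, below the lowest signals well above background there, 11.8 and 7.66. It was nonetheless flagged as positive on both arrays and lay above the highest negative control spot on each (6.67 and 2.14, outlier spots left out). The 3 other Helios probes read 2.72, 2.84 and 3.20 on the untreated and 1.75, 1.87 and 2.43 on the BSP-II array. The negative controls' medians were 2.62 and 1.69. The brightest of these 3, A_52_P431483, was flagged as positive on the BSP-II array only, where its 2.43 lay above the highest negative control spot. No fold is given for Helios, since no probe was well above background on either array. The signals of A_51_P413398 and A_52_P431483 over the negative controls are too low to measure a difference with.

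The contrast within the family does not depend on how the arrays are scaled by a constant, because each is a ratio of probes on the same arrays. The change in Ikzf1 exceeded that in Ikzf3 by 0.73 on the log2 scale (1.66-fold, carried error 0.29), and that in Ikzf5 by 0.58 (carried error 0.29). Against the 3 Ikzf4 probes the gap was 0.72, 0.85 and 0.81. These gaps compare changes, not levels: signals of different probes cannot be set against each other. Before any scaling the BSP-II signal was 1.47 times the untreated one for Ikzf1 and 0.813 to 0.980 times for the other 5 probes, while the 75th percentile itself was 1.15 times as high. Scaling by the array medians in place of the 75th percentiles added 0.12 to every log2 difference, which left Ikzf1 at 0.47 and Ikzf5 at −0.11, and the direction of all 6 probes was kept.

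**Figure D2:**
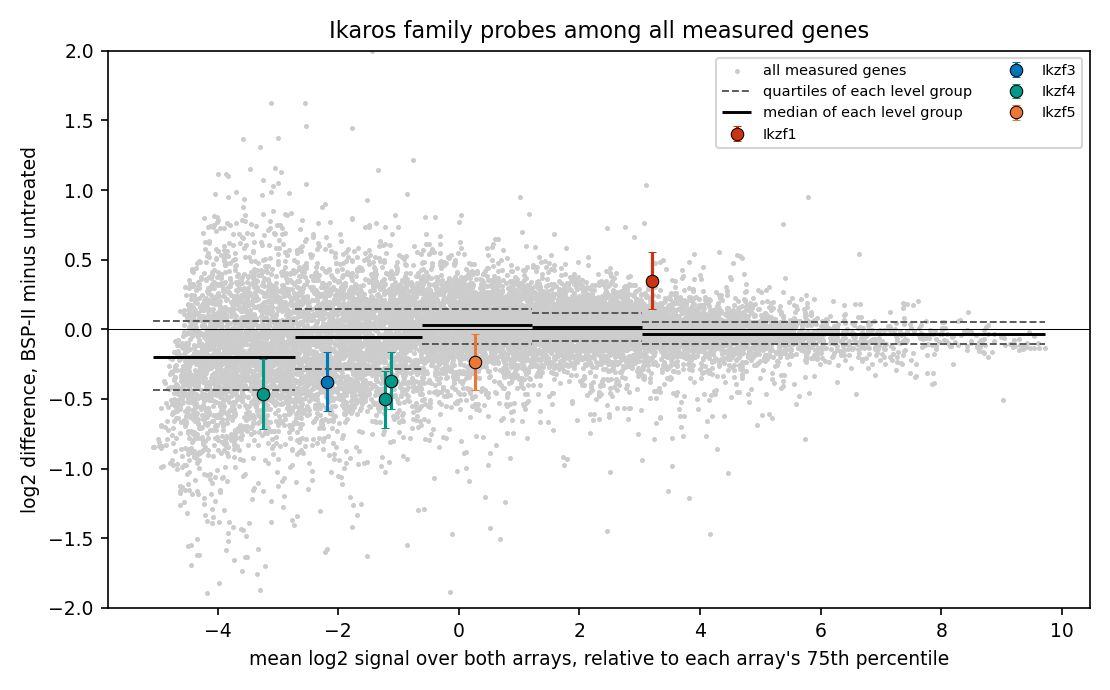
Log2 difference (BSP-II minus untreated) of the 6 measurable Ikaros family probes, with carried spot errors, against mean log2 level relative to each array's 75th percentile; grey points are the 12849 measured genes, and lines give the median and quartiles of each of the 5 level groups (15 genes lie outside the plotted range of −2 to 2). Ikzf1 lies above the narrow cloud of bright genes, at 0.35, while the other members lie at or below the lower quartile lines of dimmer genes.

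No member spot had a spot nearby that differed strongly. Within 3 rows and columns of the 6 probes there were 25 to 31 spots well above background each, and none of them differed 2-fold in either direction. The median difference within 10 rows and columns ran from −0.12 (Ikzf4, A_51_P353247) to −0.02 (Ikzf1). With that local median taken off, Ikzf1 stood at 0.37, Ikzf3 at −0.34 and Ikzf5 at −0.19, and the Ikzf4 probes at −0.24, −0.42 and −0.43.

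**Figure D3:**
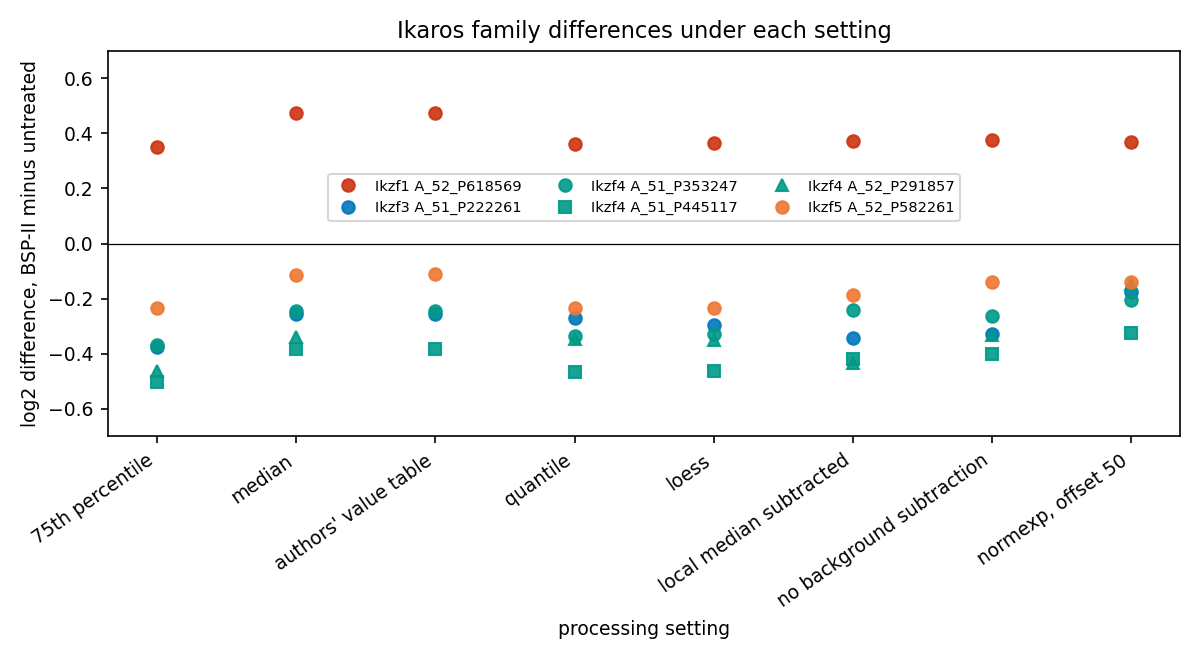
Log2 difference (BSP-II minus untreated) of the 6 measurable Ikaros family probes under 8 processing settings, 1 point per probe; the authors' value table lists only 5 of them. Ikzf1 lies between 0.35 and 0.47 throughout, and every value of the other members lies below 0.

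The labelled cell type was checked against markers. All 8 plasma cell markers were well above background on both arrays, with Jchain, the joining chain of secreted IgM and IgA, at 150869 and 155073, Mzb1, a chaperone of antibody assembly, at 53356 and 61127, and the syndecan Sdc1 at 11219 and 12123. Of 8 B cell markers 7 were well above background, and the exception was Pax5, the factor that maintains B cell identity. Most of these 8 were dim: Cd79b read 17742 and 19145, but the median signal of the list was 32.7 and 38.4. For the plasma cell markers that median was 6859 and 7953. Of 10 T cell markers on the array, which bear on Helios and Eos, 6 were well above background on both arrays, with summed signals of 887 and 986 against 240097 and 254546 for the plasma cell markers, each list by its brightest probe per gene. The median log2 difference of these 6 T cell markers was −0.29. The brightest were Cd2 (0.10), Cd3e (−0.52, the lowest of the 6) and Cd3g (−0.35). The highest was Cd3d at 0.58, at dim signals of 13.7 and 23.5. Any part of other cells in the Ikzf4 values was not tested. In bulk RNA fewer cells of a type and less RNA per cell cannot be told apart. Of other cell types, 4 of 6 myeloid, 1 of 5 NK cell, 3 of 4 fibroblast and 2 of 3 erythroid markers were well above background on both arrays, with summed signals of at most 248 on either.

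The chromatin partners of Ikaros had a median close to that of all genes, with disagreement between probes of some members. Of 20 listed genes of the NuRD complex and other corepressors 18 were measured, and their median log2 difference was −0.01, against −0.03 over all 12849 genes; 10 lay above that median and 8 below. The lowest was Rbbp4, a histone-binding subunit of NuRD, at −1.47 (2.78-fold lower), and its other probes gave −1.96 and −0.19. The NuRD subunits Mta3 and Chd3 were at 0.23 and 0.20 and Gatad2b at −0.20, and the other probes of Mta3 and Chd3 gave 0.19 and −0.11. By the brightest probe of each gene 1 of 18 was at least 1.5-fold lower, near the 4.83% of all genes, and 0 were 1.5-fold higher. Lower probes also occurred for Smarca4, the motor of a SWI/SNF remodelling complex, at −0.57 and −0.76 against 0.01 at the brightest, and for the corepressor Ctbp2, at −0.83 against 0.19; both are named after their values were seen.

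By the brightest probe of each gene, the cereblon ligase list showed no gene past 1.5-fold. All 10 of its genes were measured, with a median of −0.03 and values from −0.25 to 0.14. The lowest was Irf4, a plasma cell factor that depends on Ikaros and Aiolos in myeloma, at −0.25, and the highest were the scaffold proteins Cul4b (0.14, other probe −0.04) and Cul4a (0.12, other probe 0.18). Ddb1, which links cereblon to these scaffolds, was at −0.08. Crbn, which encodes cereblon itself and is named after its values were seen, was at 0.04 but had a dimmer probe at 0.66, past 1.5-fold. With 1.5-fold calls at 6.05% of all genes in either direction, 0 of 10 is near the background.

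Of 24 genes described as targets of Ikaros or Aiolos in B lineage cells, 19 were measured, and 13 of them lay below the median of all genes. Their median was −0.10, and none reached 1.5-fold by its brightest probe, where 6.05% of all genes did in either direction. The lowest were Dntt, the terminal transferase of early lymphocytes and a classic Ikaros-bound gene, at −0.46 with signals of 123 and 103, and the cyclin Ccnd2 at −0.30, with −0.61 and −0.24 at its other probes. The cyclin Ccnd3 was at 0.22 and the surrogate light chain gene Vpreb2, near background at 26.8 and 33.5, at 0.12. The genes not measured were Igll1, Vpreb1, Rag1, Rag2 and Il7r, which mark early B cell stages. Under scaling to the array medians the list's median was 0.03, so its sign depends on the scaling. Taken minus the median of all genes under the same setting, it ran from −0.08 to −0.01 over the 9 alternative settings.

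Transcription factors of B and plasma cells had 16 measured members of 19 and a median of −0.08. Id3, an inhibitor of E proteins, was the only one past 1.5-fold, at −0.74 (1.67-fold lower, signals of 694 and 478, 1 probe), and 1 of 16 is near the 4.83% of all genes that were that much lower. Runx1, a core factor of blood cells, was at −0.58, just inside 1.5-fold, and its other probe gave 0.08. At the high end were Spi1, which encodes PU.1, at 0.20 and Bcl6, the germinal centre repressor, at 0.11. Pax5, Irf8 and Bach2 were not measured. The list's median turned to 0.04 with scaling to the array medians and in the authors' table. Minus the median of all genes under the same setting, it ran from −0.07 to −0.03 over the 9 alternative settings.

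Other zinc finger factors of blood cells went both ways, with 14 of 19 measured, a median of 0.06 and none past 1.5-fold by its brightest probe, against 6.05% of all genes. Without background subtraction that median was −0.06. Zbtb7b, the factor that directs T cells to the CD4 lineage, was highest at 0.49 (signals of 671 and 1084). The repressor Gfi1 was at 0.35, though at low signals of 26.9 and 39.5, and its paralogue Gfi1b was at −0.35 at 23.0 and 20.8. Klf2, a factor of lymphocyte quiescence, was at −0.38, whereas its other probe gave 0.33. Bcl11a, a repressor needed for B cell development and named after its values were seen, was at 0.12 but at 0.68 by a dimmer probe.

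Among the 72 measured genes of the 5 lists, the closest to Ikzf1 in log2 difference were Gfi1 (0.35), Mta3 (0.23) and Klf13 (0.22), so only 1 lay within 0.1 of it. The closest to Ikzf3 were Klf2 (−0.38), Gfi1b (−0.35) and Tcf4 (−0.33). Neighbours (3 rows and columns to each side) were counted for the genes of each list past 1.5-fold and its 2 highest and 2 lowest. The spots of Chd3, Mta3 and Runx1 had 2 neighbours lower by 2-fold or more, and that of Ccnd3 had 3. Those of Ddb1, Cul4a and Klf2 each had 1. The part of such neighbours in these values was not tested. Klf13, Tcf4, Smarca4, Ctbp2, Crbn and Bcl11a were not among the genes checked. With only 2 arrays a shared difference is a single number, and says no more than that these values are near each other.

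**Figure D4:**
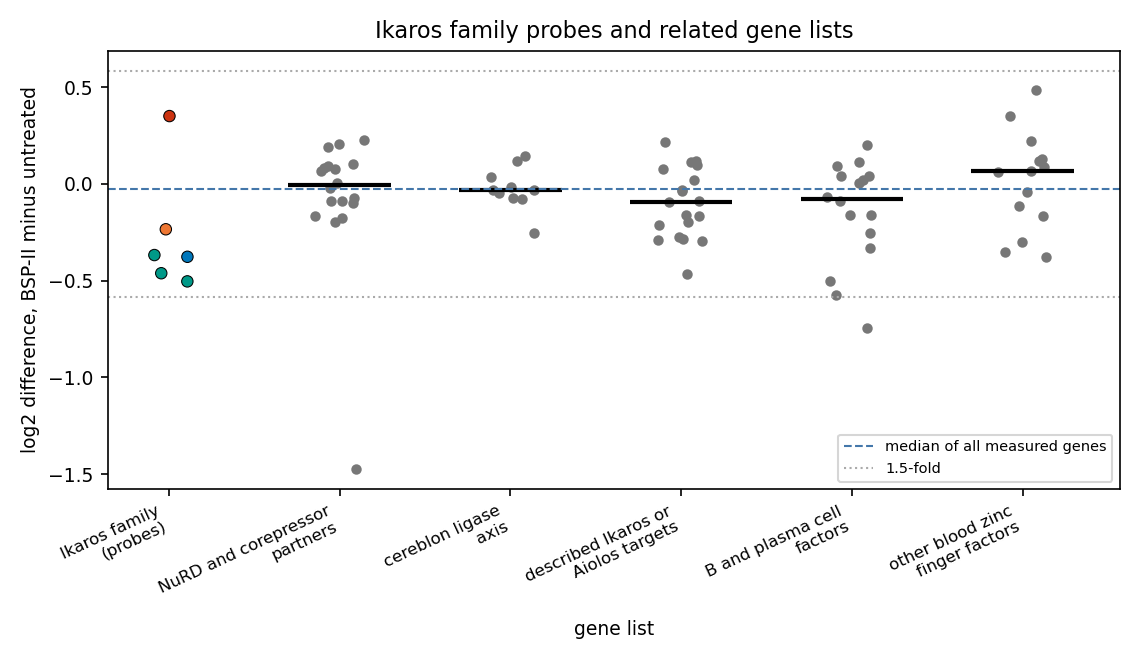
Log2 difference (BSP-II minus untreated) of the 6 measurable Ikaros family probes (coloured, Ikzf1 at the top) and of each measured gene of the 5 related lists (grey, with the list's median as a bar); dashed and dotted lines mark the median of all measured genes and 1.5-fold. Most list genes lie within 1.5-fold, with Rbbp4 at −1.47 and Id3 at −0.74 outside it.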

How the data were processed

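The submitters' processing notes name Agilent Feature Extraction 10.5.1.1. Per the file headers, the authors' deposited intensity values are a processed signal with its error and the median brightness of spot and local background. The deposited flags (unit "other") mark outlier, saturated, positive and well-above-background spots. The authors' deposited value table is on a log2 scale and matches log2 of the processed signal to within 0.0001 for 99.8% of probes once a constant is added to each array (−4.85 and −4.94; column medians 2.88 and 2.99); the origin of that centring is unknown.

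Unversioned accessions were looked up in a RefSeq table of GRCm38.p6, for names alone, because the grid was built on mm9; probes with other accessions stayed unnamed. Control spots and 189 outlier spots were left out; no gene spot was saturated. The main value is log2 processed signal minus the array's 75th percentile. A gene takes the value of whichever probe is brightest on average, and is measured if that probe is well above background on both arrays. Carried errors combine both spots' relative errors. Named list genes are those past 1.5-fold, or otherwise the 2 highest and 2 lowest of a list. Members, lists and rules were chosen with earlier results of these data known. With 1 array per group no test was made; the number of arrays limits the precision. Scaling to the 75th percentile and the recovery of log2 differences were tested on simulated data, whose changes were larger than those of the family. The choice of probe per gene, the filter on dim probes, carried errors, level groups and alternative settings were not part of that simulation. Python 3.11.15, numpy 2.4.6, pandas 2.3.3, R 4.3.3 and limma 3.58.1 were used.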

Additional observations from a re-analysis of the deposited data

How the results depend on the processing

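Alternatives were scaling by median, by quantiles or by loess, the values of the authors' table, normexp (offset 50) and no background subtraction (both on the median spot signal), subtraction of local medians and, for genes and lists, no filter on dim probes and the median over a gene's probes. Over the alternatives, Ikzf1 ran from 0.36 to 0.47, Ikzf3 from −0.34 to −0.18, Ikzf5 from −0.23 to −0.11 and the Ikzf4 probes from −0.47 to −0.15, all with the direction kept. The gap of Ikzf1 over any other member stayed between 0.51 and 0.85. In 1 of 41 cases a probe moved by more than its carried error: Ikzf4 A_52_P291857 with normexp, at −0.15. That probe is not listed in the authors' table.

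Counts of genes at least 1.5-fold higher and lower, 156 and 621, were 307 and 380 with median scaling, 307 and 255 in the authors' table, 31 and 96 with normexp, 33 and 167 without background subtraction, and 681 and 2723 without the filter on dim probes. The cause was not tested. The share of calls that were higher was 20.1%, but 44.7% with median scaling, 33.1% with loess and 34.6% with quantile scaling. The cereblon list's median moved to 0.090 with median scaling and to 0.091 in the authors' table, which add a constant to all genes. The other 43 list medians moved by less than the SD of the list's genes, though small medians changed sign: that of the NuRD and corepressor list, −0.01, was above 0 in all alternatives but the one without the dim filter. No paired analysis was possible because each group has 1 array and they share only replicate number 1. Dim signals limit Ikzf2, Ikzf3 and Ikzf4 A_52_P291857.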

Other observations

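Foxp3, the defining factor of regulatory T cells and a partner of Eos, was singled out after its values were seen. Its only probe read 63.8 with BSP-II, well above background, and 7.50 without, which was not. Against the lowest signal that passed without the peptide, 11.8, put in place of 7.50, the scaled BSP-II signal was 4.68-fold higher. That is not a firm minimum, as the T cell marker Cd8a read 14.7 without the peptide and did not pass. Within 3 rows and columns of the Foxp3 spot 1 spot was at least 2-fold higher and 1 at least 2-fold lower. Dim markers of other cell types passed from not well above to well above background in the same way: Prf1, a cytotoxic granule protein, read 8.25 and 42.6, and the myeloid integrin Itgam 4.87 and 15.8, without and with the peptide. Csf1r, a myeloid receptor, was well above background on both, at 48.4 and 104. Of all 41163 probes, 27272 were well above background with BSP-II and 24674 without. The lowest signal that passed was 7.66 with BSP-II and 11.8 without. Passing only with the peptide is thus not particular to these markers. The shift of Foxp3 is one of several among dim markers, and whether it bears on Eos was not tested. The Eos probes were lower with the peptide, and no Helios probe was well above background.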
